A study of Homo sapiens with 24 samples.

Results

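The genomic region described here holds the protein-coding gene VMP1 and, inside it, the gene of the microRNA miR-21. It was followed through 4 rows of the values deposited for A549, a long-established line of human lung adenocarcinoma. VMP1 and the MIR21 gene model are 2 of the 22026 genes of the mRNA values, and hsa-miR-21-5p and hsa-miR-21-3p are 2 of the 2582 miRNAs of the small RNA values. All 4 were picked by name. Cells in CAF conditioned medium and control cells were taken at 3, 6, 12, 24, 48 and 72 h, which gave 6 CAF and 6 control libraries for each of the 2 assays. CAF is the abbreviation of the labels, in this field usually cancer-associated fibroblast. The labels do not describe the fibroblasts, the preparation of their medium or the medium of the control cells. Both groups are the same line with no other agent or allele named, so A549 alone stands for the tumour cell. The submitters describe 2 biological replicates behind each sample, but the deposited values hold 1 column per medium and time. The p-values below therefore measure the spread between these libraries and times, which may be technical.

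VMP1 encodes vacuole membrane protein 1, a membrane protein of the endoplasmic reticulum that is needed for autophagosomes to form. The primary transcript of miR-21 is made by RNA polymerase II, from a promoter of its own within VMP1 or by reading on from VMP1, and it is polyadenylated. The enzymes DROSHA and DICER1 then cut a hairpin and a short duplex out of it. The 5p strand is the one mainly loaded into Argonaute proteins, where it represses mRNAs that pair with its seed, and the 3p strand is the less abundant partner. miR-21-5p is among the most abundant miRNAs of many carcinomas, lung adenocarcinoma included. Its reported targets, such as PDCD4, include genes that restrain growth and survival.

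The mature 5p strand is shown with the only other miRNA of the values that had the same seed, bases 2 to 8, in capitals. All 3 sequences are those of RefSeq on GRCh38.p14, in which 2026 of the 2303 named miRNAs of the values had a mature sequence. miR-21-5p lies at chr17:59841273-59841294 on the plus strand and miR-590-5p at chr7:74191213-74191234 on the plus strand.
hsa-miR-21-5p: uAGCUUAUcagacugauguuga
hsa-miR-590-5p: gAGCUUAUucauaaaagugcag
The hairpin is shown because the MIR21 model of the mRNA values has the same length, 72 bases, and capitals mark the mature 5p strand at bases 8 to 29. It lies at chr17:59841266-59841337 on the plus strand.
MIR21: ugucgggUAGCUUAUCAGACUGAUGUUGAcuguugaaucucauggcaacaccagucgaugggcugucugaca
None of the 279 predicted miRNAs of the values had this seed. miR-590-5p was rare beside miR-21-5p, at 4.97 to 17.36 RPM (reads scaled to 1 M miRNA reads, M for mega) in CAF libraries and 5.23 to 32.38 in control libraries. Its mean log2 difference between the media was 0.06 (limma, adjusted p = 0.970).

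Levels of genes are in RPKM, reads scaled to 1 kilobase of gene model and to 1 M mapped reads. Levels of miRNAs are in RPM, reads scaled to 1 M reads assigned to miRNAs. Depth differed with time in both assays. Early mRNA libraries (3, 6 and 12 h) held 23.9 to 29.3 M reads, and late ones (24, 48 and 72 h) held 33.9 to 40.6 M. Small RNA libraries held 2.37 to 5.77 M reads at the early times and 0.868 to 2.67 M at the late ones, and these ranges overlap. All 5 epithelial markers were detected, with a summed level of 1969 to 3481 RPKM in CAF libraries and 2447 to 3211 RPKM in control libraries. KRT8 and KRT18 made up nearly all of that sum and were not called (log2 differences -0.08 and 0.06 over the 6 times). EPCAM was called higher in CAF medium over the 6 times (log2 difference 0.82, limma adjusted p = 0.0174, higher at 6 of 6 times), beside 10.2% of all tested genes. KRT19 was called over 3 to 12 h (1.58, limma adjusted p = 0.0217), beside 5.63%, but not over 24 to 72 h (adjusted p = 0.621) or the 6 times (adjusted p = 0.0632). CDH1 was called over 24 to 72 h (0.94, limma adjusted p = 0.0434), beside 4.09%, but not over 3 to 12 h (adjusted p = 0.742) or the 6 times (adjusted p = 0.104). The summed level of 7 fibroblast markers was 6.80 to 10.1 RPKM in CAF libraries and 4.38 to 9.90 RPKM in control libraries. Of these, COL1A1 averaged 4.21 RPKM in CAF medium and 2.85 RPKM in control medium. It was called higher in CAF medium over 3 to 12 h (log2 difference 1.11, limma adjusted p = 0.0259), beside 5.63% of all tested genes. It was not called over 24 to 72 h (limma adjusted p = 0.957) or the 6 times (adjusted p = 0.156). FAP averaged 2.88 RPKM in CAF medium and 2.70 RPKM in control medium, and COL1A2 and COL3A1 stayed at or under 0.12 and 0.16 RPKM in every library. The part of these marker differences in the results below was not tested. The summed immune markers came to 14.0 to 30.6 RPKM in CAF libraries and 18.6 to 22.7 RPKM in control libraries, nearly all of it from CD68, and the endothelial markers reached at most 0.09 RPKM. In bulk RNA, fewer cells of a type and less RNA per cell cannot be told apart.

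VMP1 was an abundant transcript in both media, and it rose with time. Its level in CAF medium was 112.43 RPKM at 3 h, 111.37 at 6 h, 95.52 at 12 h, 151.98 at 24 h, 163.33 at 48 h and 141.42 at 72 h. Its level in control medium was 93.43 RPKM at 3 h, 94.37 at 6 h, 95.64 at 12 h, 113.16 at 24 h, 137.99 at 48 h and 137.46 at 72 h. All 6 libraries of 24 to 72 h lay above all 6 libraries of 3 to 12 h, and the 2 media overlapped. The share of all tested genes that did the same was not counted. These levels ranked VMP1 between 280th and 542nd of all genes and rested on 4902 to 13413 reads per library. Counting error is therefore small beside the differences between libraries.

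The slope of VMP1 on time, with medium as a term, was 0.13 ± 0.03 log2 units per doubling of the hours (SE, 12 libraries). It passed the test (limma, adjusted p = 0.00761), as did 34.4% of the 12029 tested genes in either direction and 21% as rising. The deeper sequencing of the late mRNA libraries moved with it, and its part in the rise was not tested. CAF medium held more VMP1 than control medium at 5 of 6 times. The log2 difference was 0.27 at 3 h, 0.24 at 6 h, -0.002 at 12 h, 0.42 at 24 h, 0.24 at 48 h and 0.04 at 72 h. VMP1 averaged 129 ± 26.7 RPKM in CAF medium and 112 ± 21.2 RPKM in control medium (SD, n = 6 each, 1 library per time). The difference over the 6 times was 0.20 ± 0.09 on the log2 scale and did not pass the test (limma, adjusted p = 0.155), which 10.2% of the tested genes did. Nor did the difference over 3 to 12 h pass (0.17, adjusted p = 0.459, 5.63% of genes called), nor that over 24 to 72 h (0.24, adjusted p = 0.331, 4.09% of genes called). Neither VMP1 nor MIR21 was higher in CAF medium at all 6 times, as 8.97% of the tested genes were, or higher in control medium at all 6 times, as 7.81% were.

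**Figure D1:**
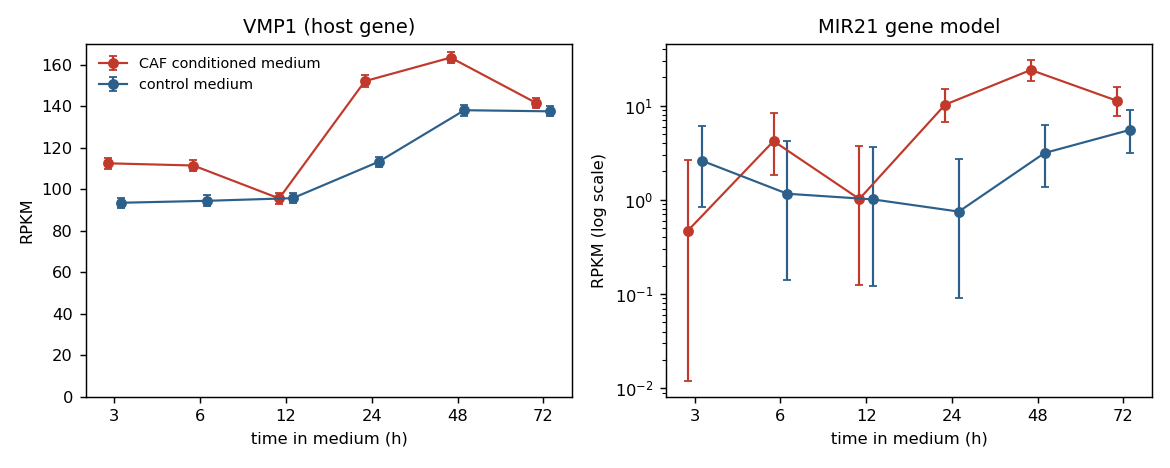
VMP1 and the MIR21 gene model in RPKM against the time in medium, CAF conditioned medium in red and control medium in blue, with exact 95% Poisson intervals of the reads as bars and a log axis for MIR21. VMP1 lies above 113 RPKM in every library from 24 h on, and MIR21 lies at 10.23 RPKM or more in the 3 late CAF libraries and at 5.54 RPKM or less in every control library.

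The MIR21 gene model, which covers the hairpin, was far lower than VMP1 per length and rose in CAF medium at the late times. Its level in CAF medium was 0.47 RPKM at 3 h, 4.20 at 6 h, 1.02 at 12 h, 10.23 at 24 h, 23.90 at 48 h and 11.29 at 72 h. Its level in control medium was 2.61 RPKM at 3 h, 1.16 at 6 h, 1.01 at 12 h, 0.75 at 24 h, 3.14 at 48 h and 5.54 at 72 h. At 24 to 72 h every CAF library lay above every control library, and at 3 to 12 h the media overlapped. How many of all tested genes separated in this way was not counted. The log2 difference was -1.68 at 3 h, 1.50 at 6 h, 0.01 at 12 h, 3.10 at 24 h, 2.74 at 48 h and 0.96 at 72 h.

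Few reads stood behind these levels. The model has 72 bases against 2174 for VMP1, and its level per length was lower as well. The CAF libraries held 1, 8, 2, 25, 65 and 33 reads from 3 to 72 h, and the control libraries held 5, 2, 2, 2, 8 and 16. Scaled to depth, the CAF level over that of control medium was 13.7 at 24 h (exact 95% interval 3.41 to 119), 7.62 at 48 h (3.64 to 18.4) and 2.04 at 72 h (1.09 to 3.96). These 3 intervals lie above 1. At 3 h the ratio was 0.182 (0.00384 to 1.62), at 6 h 3.61 (0.721 to 34.9) and at 12 h 1.01 (0.0731 to 13.9), so no early difference was detectable at this depth. Summed over 24 to 72 h, 123 CAF reads against 26 control reads gave a ratio of 4.74 (3.09 to 7.55), and over 3 to 12 h 11 against 9 reads gave 1.15 (0.432 to 3.13). The intervals cover counting error only.

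Over 24 to 72 h, MIR21 averaged 15.1 ± 7.60 RPKM in CAF medium and 3.14 ± 2.40 RPKM in control medium (SD, n = 3 each). The difference was 2.27 ± 0.49 on the scale of log2(RPKM + 0.5) and passed the test (limma, adjusted p = 0.0297). Of the 12029 tested genes, 1.36% were called higher in CAF medium over these times, and MIR21 had the second largest positive difference. The call was lost without the libraries of 12 h (adjusted p = 0.0698), of 24 h (log2 difference 1.86, adjusted p = 0.115) or of 48 h (2.03, adjusted p = 0.262). It was also lost with no filter on low values (adjusted p = 0.182).

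Over 3 to 12 h, MIR21 averaged 1.90 ± 2.01 RPKM in CAF medium and 1.59 ± 0.884 RPKM in control medium (SD, n = 3 each), a log2 difference of -0.06 ± 0.49 (limma, adjusted p = 0.957). Without the libraries of 3 h this early difference was 0.76. The late difference exceeded the early one by 2.33 ± 0.70 (unadjusted p = 0.00646 by limma), which did not pass after adjustment (adjusted p = 0.218), as 0.416% of the genes did. A change of the medium effect between the early and the late times is therefore not shown by the test across all genes. Over the 6 times the difference was 1.11 ± 0.50 and did not pass (limma, adjusted p = 0.168), but it did without the libraries of 3 h (1.66, adjusted p = 0.0269). In the fit of 1 slope over both media, MIR21 rose with time by 0.54 ± 0.16 log2 units per doubling of the hours. The slope passed the test (limma, adjusted p = 0.0163), as did 34.4% of the tested genes in either direction and 21% as rising. That call was lost without the libraries of 48 h (0.46, adjusted p = 0.0620) or 72 h (0.53, adjusted p = 0.102).

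The mRNA values held 102 models named as MIR genes of at most 200 bases, of which 23 passed the filter on low values. MIR21 was 13th of the 102 by mean level, far below MIR548H2 at 970, MIR3134 at 513 and MIR548AE2 at 245 RPKM. Of the 23 tested models, 2 were called over 24 to 72 h, beside 4.09% of all tested genes. They were MIR21 and MIR548I4, which was lower in CAF medium by a log2 difference of -2.82 (limma, adjusted p = 0.00366). MIR21 lies within the VMP1 gene of RefSeq, on an assembly that differs from the hg19 of the submitters. Whether it also does so in the gene models behind the values was not checked. Reads 151 bases long are longer than the hairpin. The sources used here do not say how reads over it were assigned or whether strand was used. Reads of unspliced or extended VMP1 transcripts and reads of the primary miR-21 transcript therefore cannot be told apart in the MIR21 values.

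The genes on both sides of the pair did not pass the test. In the RefSeq order CLTC and PTRH2 precede VMP1, and TUBD1, RPS6KB1 and RNFT1 follow it. Over the 6 times the log2 difference was -0.09 for CLTC, the clathrin heavy chain, -0.17 for PTRH2, a mitochondrial peptidyl-tRNA hydrolase, 0.14 for TUBD1, delta-tubulin, 0.03 for RPS6KB1, the S6 kinase, and -0.09 for RNFT1, a ring finger membrane protein. None of the 5 was called over the 6 times, over 3 to 12 h, over 24 to 72 h or with time. Over 24 to 72 h all 5 differences were negative, beside 53.3% of all tested genes, and ranged from -0.003 for TUBD1 to -0.28 for RNFT1. Their median was -0.07 against -0.02 over all tested genes. VMP1 and MIR21 were positive over these times.

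The mature 5p strand was the most abundant miRNA of the small RNA values, and no difference between the media was found for it. Its level in CAF medium was 350585 RPM at 3 h, 261683 at 6 h, 248474 at 12 h, 273924 at 24 h, 323802 at 48 h and 351601 at 72 h. Its level in control medium was 243853 RPM at 3 h, 299166 at 6 h, 271465 at 12 h, 297798 at 24 h, 204899 at 48 h and 323446 at 72 h. The media overlapped in both the early and the late times. CAF medium was higher at 3, 48 and 72 h, with log2 differences of 0.52, 0.66 and 0.12, and lower at 6, 12 and 24 h, with log2 differences of -0.19, -0.13 and -0.12.

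miR-21-5p averaged 301678 ± 45988 RPM in CAF medium and 273438 ± 43204 RPM in control medium (SD, n = 6 each). The log2 difference over the 6 times was 0.14 ± 0.14 (limma, adjusted p = 0.794). It was 0.07 at the early times (adjusted p = 0.977) and 0.22 at the late times (adjusted p = 0.833). The late difference exceeded the early one by 0.15 (adjusted p = 0.968), while the median over the 470 tested miRNAs was 0.18 for the same quantity. Of the 470 tested miRNAs, 0% passed in each of these 4 comparisons, with 49, 41, 32 and 17 at an unadjusted p under 0.05. The edgeR test on the recovered reads called 0 in each as well. The slope of miR-21-5p on time was 0.02 log2 units per doubling of the hours (limma, adjusted p = 0.792).

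As a share of all miRNA reads, miR-21-5p took 24.8 to 35.2% in CAF libraries and 20.5 to 32.3% in control libraries. It ranked first in 11 of 12 libraries. In the control library of 48 h it ranked second, behind the predicted miRNA that the values name chr12_5220, which took 37.6% of the reads there. Predicted miRNAs held 49.1% of the reads of that library and as little as 22.9% in another, so every share of a named miRNA depends on them. Per 1 M reads of named miRNAs alone, miR-21-5p stood at 489826 in the CAF library of 48 h and 402299 in the control library of 48 h. On that scale it ranged from 384446 to 489826 in CAF libraries and from 317494 to 473540 in control libraries.

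By mean level over the 12 libraries, miR-21-5p at 287558 RPM was followed by the predicted chr12_5220 at 230903 RPM, the predicted chr18_13667 at 86668 RPM, miR-27b-3p at 67776 RPM and miR-27a-3p at 31650 RPM. miR-21-3p came 9th with 16196 RPM.

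**Figure D2:**
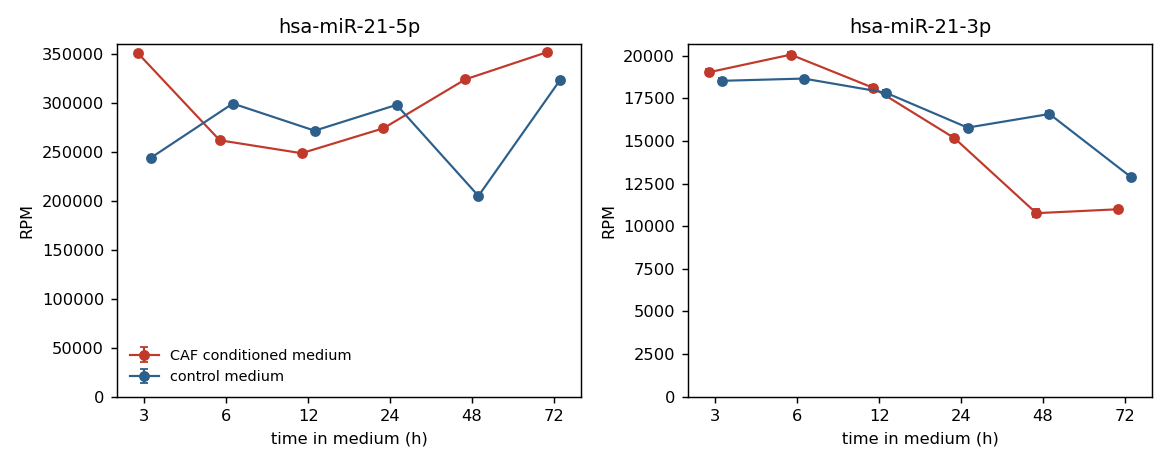
hsa-miR-21-5p and hsa-miR-21-3p in RPM against the time in medium, CAF conditioned medium in red and control medium in blue, with exact 95% Poisson intervals of the reads, mostly narrower than the points. The 5p strand has no common course in the media, and the 3p strand lies lower in all 6 libraries of 24 to 72 h than in any library of 3 to 12 h.

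The 3p strand fell with time in the fit over both media. Its level in CAF medium was 19023 RPM at 3 h, 20056 at 6 h, 18127 at 12 h, 15161 at 24 h, 10764 at 48 h and 10993 at 72 h. Its level in control medium was 18522 RPM at 3 h, 18654 at 6 h, 17828 at 12 h, 15780 at 24 h, 16578 at 48 h and 12864 at 72 h. The lowest early library, of control medium, was above the highest late one, also of control medium. CAF values lay above control values at 3 of 3 early times and below them at 3 of 3 late times. The shares of the tested miRNAs with these patterns were not counted. The log2 difference was 0.04 at 3 h, 0.10 at 6 h, 0.02 at 12 h, -0.06 at 24 h, -0.62 at 48 h and -0.23 at 72 h.

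The slope of miR-21-3p was -0.15 ± 0.04 log2 units per doubling of the hours (limma, adjusted p = 0.0205, 12 libraries), and 8.30% of the tested miRNAs were called as falling. The call was lost with median centring (-0.14, adjusted p = 0.105), with quantile normalization (-0.064, adjusted p = 0.318) and with the total of the named miRNAs (-0.12, adjusted p = 0.166). It was also lost without the libraries of 6, 48 or 72 h and in the edgeR test on the recovered reads (adjusted p = 0.0765), with a negative slope each time. Small RNA depth was 2.37 to 5.77 M reads early and 0.868 to 2.67 M late, with overlap, and its part in the fall was not tested. miR-21-3p averaged 15687 ± 4067 RPM in CAF medium and 16704 ± 2190 RPM in control medium (SD, n = 6 each). The difference between the media did not pass over the 6 times (-0.12 ± 0.13, limma adjusted p = 0.800). It was 0.06 at the early times (adjusted p = 0.977) and -0.30 ± 0.17 at the late times (adjusted p = 0.712). Nor did the late minus the early difference (-0.36, adjusted p = 0.903).

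The ratio of the strands takes out the amount of their common precursor. The 3p strand made up 5.15, 7.12, 6.80, 5.24, 3.22 and 3.03% of the reads of both strands in the CAF libraries of 3 to 72 h. In the control libraries it made up 7.06, 5.87, 6.16, 5.03, 7.49 and 3.82%. The CAF libraries of 48 and 72 h and the control library of 72 h had the lowest shares, and the control library of 48 h had the highest. Among the 81 hairpins with both strands measured, the mean log2 ratio of 3p over 5p was -4.16 for miR-21.

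The CAF minus control difference of this ratio was -0.27 ± 0.23 over the 6 times (limma, adjusted p = 0.655, with 0% of the hairpins called and 6 at an unadjusted p under 0.05). Over 24 to 72 h it was -0.52 ± 0.31 (limma, adjusted p = 0.634, with 0% called and 3 at an unadjusted p under 0.05). The slope of the ratio on time was -0.17 ± 0.07 per doubling of the hours and did not pass (limma, adjusted p = 0.209). In that comparison 2.47% of the hairpins were called as falling, namely let-7a and miR-32.

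**Figure D3:**
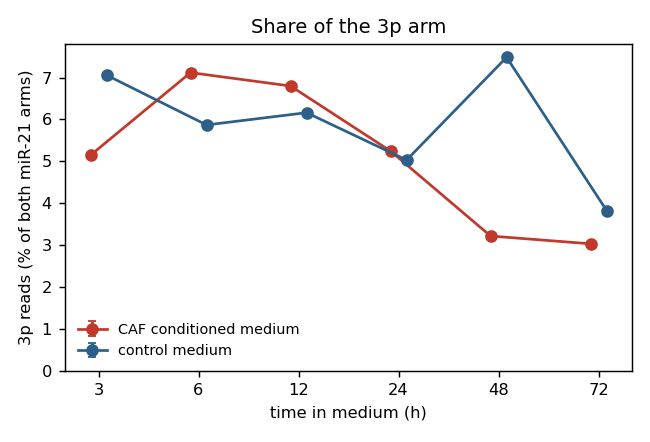
Reads of hsa-miR-21-3p as a percentage of the reads of both miR-21 strands against the time in medium, CAF conditioned medium in red and control medium in blue, with 95% Wilson intervals that are narrower than the points. The CAF share is 3.22% at 48 h and 3.03% at 72 h, and the control share is 7.49% at 48 h and 3.82% at 72 h.

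Ratios between the rows of the region were compared over the 6 times with an exact sign-flip permutation test, two-sided, whose smallest possible p is 0.03125. The log2 ratio of MIR21 to VMP1 was higher in CAF medium at 5 of 6 times, by 0.91 ± 1.72 on average (SD, n = 6, exact p = 0.219, adjusted p = 0.375 over the 3 ratios). The ratio of miR-21-5p to MIR21 was lower in CAF medium at 5 of 6 times, by a mean log2 difference of -0.96 ± 1.88 (SD, n = 6, exact p = 0.25, adjusted p = 0.375). The ratio of the 3p to the 5p strand differed by -0.27 ± 0.58 (SD, n = 6, exact p = 0.375, adjusted p = 0.375). None of the 3 passed. A single ratio at the smallest possible p would not have passed after adjustment over the 3. A difference between early and late times also counts as spread in this test. The test therefore cannot decide whether the rows moved together. The late difference of MIR21 stood at 2.27 on the log2 scale, that of VMP1 at 0.24, that of miR-21-5p at 0.22 and that of miR-21-3p at -0.30.

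**Figure D4:**
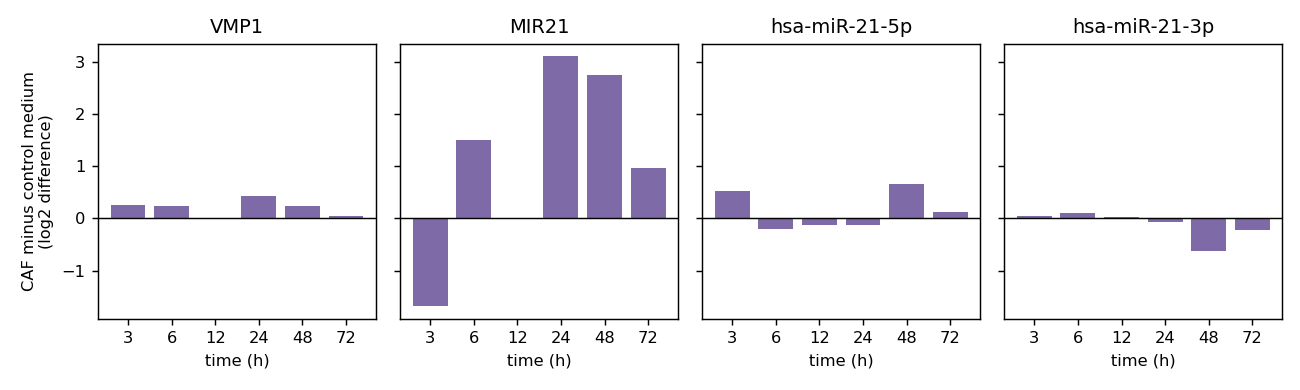
Log2 difference, CAF minus control medium, at each time for VMP1, MIR21, hsa-miR-21-5p and hsa-miR-21-3p on 1 scale, with each bar standing for 1 pair of libraries and with no replicate at a single time. MIR21 spans -1.68 to 3.10, and the other rows stay between -0.62 and 0.66.

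Across the 12 mRNA libraries, the course of VMP1 was most like those of DHCR7 (Pearson r = 0.986), the last enzyme of cholesterol synthesis, RBM7 (0.985), a subunit of the nuclear exosome targeting complex, STARD4 (0.983), a sterol carrier, TMEM243 (0.980) and ITM2B (0.978). The correlation of MIR21 with VMP1 was 0.814, which placed MIR21 1491st of 12028 genes. MIR21 was most like SRP54 (0.962), a subunit of the signal recognition particle, SIDT2 (0.955), LOC145757 (0.949), CLYBL (0.943) and NFE2L3 (0.937). Across the 12 small RNA libraries, miR-21-5p was most like miR-664a-3p (0.890), miR-19b-3p (0.862), miR-452-5p (0.847), miR-140-5p (0.833) and miR-19a-3p (0.826). miR-21-3p was most like the predicted chr1_15900 (0.971), miR-3529-3p (0.911), the predicted chr11_3766 (0.888), miR-98-5p (0.878) and miR-7-5p (0.852). The strands had an r of -0.497 with each other. These are descriptions over 12 libraries that share media, times and the depth of each time.

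Of 29 reported targets of miR-21, 28 were in the values and 23 passed the filter on low values. Over the 6 times 2 rose and 3 fell, with a median log2 difference of -0.03 against 0.002 over all tested genes. Those that rose were RECK, an inhibitor of matrix metalloproteinases (0.37, limma adjusted p = 0.0492), and BTG1, an antiproliferative factor (0.53, adjusted p = 0.0456). Each was higher in CAF medium at 6 of 6 times. Those that fell were TPM1, a tropomyosin (-0.50, limma adjusted p = 0.0428), SMAD7, the inhibitory SMAD (-0.40, adjusted p = 0.0245), and CDC25A, a phosphatase of the cell cycle (-0.58, adjusted p = 0.0209). TPM1 was lower in CAF medium at 5 of 6 times, and SMAD7 and CDC25A at 6 of 6.

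The share of targets called, 5 of 23, stands beside 10.2% of all tested genes, and the calls went in both directions. Over 3 to 12 h, 1 target was called, RECK (0.56, limma adjusted p = 0.0352), beside 5.63% of all tested genes, and over 24 to 72 h none was, beside 4.09%. PDCD4 averaged 34.5 RPKM in CAF medium and 32.1 RPKM in control medium, a log2 difference of 0.12 that did not pass and that was -0.037 without the libraries of 6 h. BTG2 (-0.06), SPRY1 (0.35) and SPRY2 (0.18) did not pass either, and TIMP3 was untested, with no library above 0.21 RPKM.

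Of 15 tested genes of the miRNA processing machinery, 13 had a negative difference over the 6 times, beside 49.7% of all tested genes, with a median of -0.20, and 1 passed, beside 10.2% of all tested genes. It was DDX5, an RNA helicase that works with DROSHA (-0.49, limma adjusted p = 0.0353), with 268 RPKM in CAF medium and 366 RPKM in control medium. DROSHA itself differed by -0.23 (adjusted p = 0.151), its partner DGCR8 by -0.39 (adjusted p = 0.0765), DICER1 by -0.24 (adjusted p = 0.169) and AGO2, which carries the mature strand, by 0.07.

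Of 15 transcription factors reported to act on the MIR21 promoter, 12 were tested and 1 passed over the 6 times, beside 10.2% of all tested genes. SRF, the serum response factor, fell (-0.43, limma adjusted p = 0.0223), and over 3 to 12 h, with 5.63% of all tested genes called, ETS1 fell (-0.72, adjusted p = 0.0259). None was called over 24 to 72 h, with 4.09% of all tested genes called, the times at which MIR21 was higher in CAF medium. STAT3 differed by 0.04 and NFIB by 0.01. The AP-1 members differed in both directions without passing, by -0.37 for JUN, -0.71 for FOSL1 (adjusted p = 0.174) and 0.37 for JUND (adjusted p = 0.0600, higher in CAF medium at 6 of 6 times). Over 24 to 72 h JUN differed by 0.29 (limma adjusted p = 0.613) and JUND by 0.50 (adjusted p = 0.0965). JUNB differed by 0.004, FOSL2 by 0.09 and FOSL1 by -0.11 over these times, and FOS was below the filter.

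Genes that work with VMP1 in autophagosome formation were positive in 18 of 23 cases over the 6 times. Of all tested genes, 49.7% were negative. The list had a median log2 difference of 0.08, against 0.002 over all tested genes, and 4 calls, all upward. WIPI1, a phosphoinositide-binding protein of the forming membrane, rose the most of the 23 (0.88, limma adjusted p = 0.0128), with 30.2 RPKM in CAF medium and 17.1 RPKM in control medium. The lipidated LC3 relative GABARAPL1 (0.61, limma adjusted p = 0.0173), the lipid transporter ATG2A (0.56, adjusted p = 0.0190) and the ULK1 complex scaffold RB1CC1 (0.42, adjusted p = 0.0380) rose as well. The share called, 4 of 23, stands beside 10.2% of all tested genes. Over 3 to 12 h 5 of 23 were called, beside 5.63% of all tested genes, and over 24 to 72 h 1, WIPI1, beside 4.09%. With time 7 of 23 rose and none fell, beside 21% of all tested genes called as rising. TMEM41B, a scramblase related to VMP1, differed by 0.26, BECN1 by -0.16, MAP1LC3B by 0.07 and SQSTM1 by -0.22, and none of them passed. Of the 11 list genes called over the 6 times, 0 kept the call whichever time was left out. Calls over all genes fell as well, from 1226 to 34 without the libraries of 6 h and to 35 without those of 12 h. Each of the 11 differences kept its direction, with WIPI1 at 0.79 to 1.015 and BTG1 at 0.38 to 0.635.

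**Figure D5:**
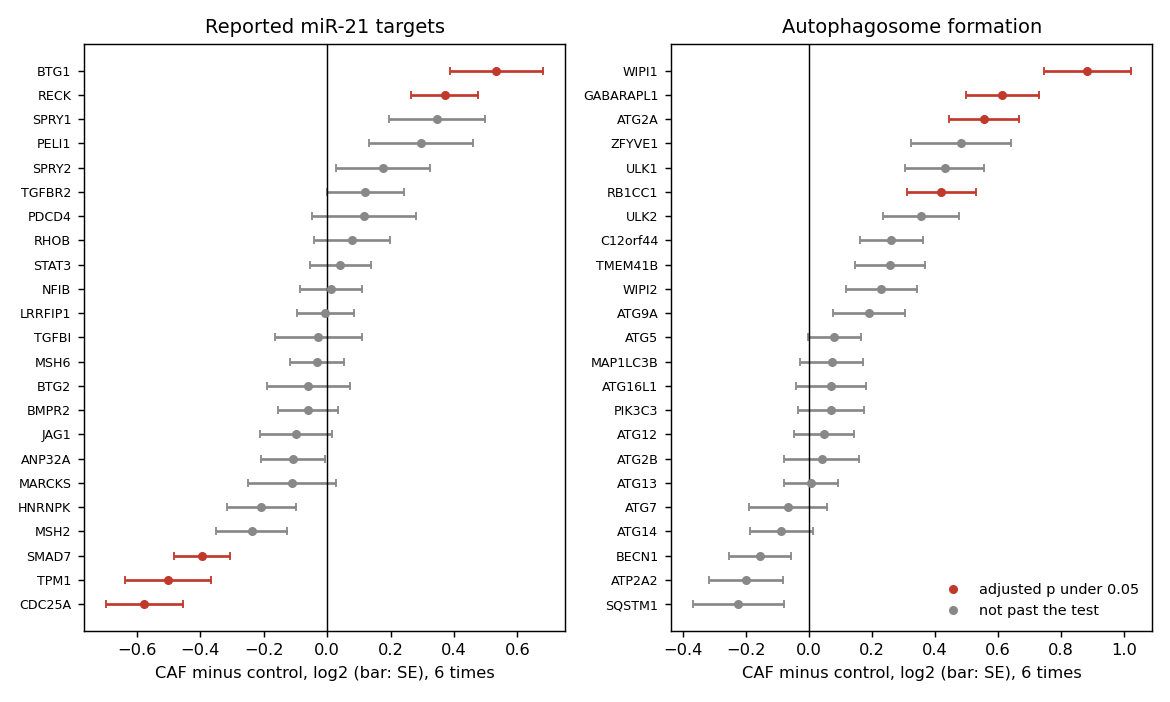
Log2 difference, CAF minus control medium, over the 6 times for the tested reported miR-21 targets on the left and the autophagosome genes on the right, with the SE from limma as bars and red for an adjusted p under 0.05. The targets lie on both sides of 0 with 2 calls above and 3 below, and the 4 called autophagosome genes lie between 0.42 and 0.88.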

How the data were processed

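Poly(A) RNA and small RNA of A549 cells were sequenced in 12 libraries each. The authors deposited RPKM with gene model lengths in bases, and RPM for miRNAs (named TPM per the labels, but with no correction for length). TopHat2, Bowtie, edgeR and hg19 are named, without versions, per the submitters' processing notes. How reads were counted and replicates joined is not given in the sources used here. Small RNA depth came from the smallest steps between values. For mRNA, the depth was searched that made the most low values of short gene models whole reads. In both, 100% of the low values checked were whole reads within 0.1 read. For mRNA that share is the quantity fitted, so it is no separate check.

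Tests used limma 3.58.1 in R 4.3.3 (moderated, two-sided, mean-variance trend) on log2(RPKM + 0.5) for genes averaging 1 RPKM or more and log2(RPM + 1) for miRNAs averaging 10 RPM or more. Fold changes on these scales understate those of low genes. The medium effect had time as a factor (5 residual degrees of freedom), pairing the libraries of a time, and early and late effects were fitted together (4). The slope on log2 of the hours had medium as a term (9). It counts both libraries of a time separately, so its p-values can be too small. Adjustment was Benjamini-Hochberg over all tested features at 0.05. A count test on reads recovered from RPM used edgeR 4.0.16 with TMM scaling. Named genes were the 4 rows, their 5 closest features each, seed mates, and the most abundant miRNAs and MIR models. List genes set by name or past the test were named too. MIR548I4, let-7a, miR-32, JUND, JUNB, FOSL2 and single markers were named after their values were seen. Alternatives were other pseudocounts, filters, scalings and totals, no time term, and leaving out each time. Members and lists were chosen with earlier results of these data known. 1 item of the target list is not reported here.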

Additional observations from a re-analysis of the deposited data

How the results depend on the processing

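No setting tried gave VMP1 or either miR-21 strand a call between the media, and the rise of VMP1 with time passed in each. Leaving out 1 time at a time, the log2 difference of MIR21 ranged from 0.71 to 1.66 over the 6 times, from -0.84 to 0.76 over 3 to 12 h and from 1.86 to 2.92 over 24 to 72 h, and its slope from 0.46 to 0.64. With no filter on low values the late difference was still 2.27 but not called. The late minus early difference of VMP1 ranged from -0.026 to 0.17. Of miR-21-5p, the early difference ranged from -0.16 to 0.20, the late one from -7.29e-05 to 0.39, the late minus early one from -0.068 to 0.38 and the slope from -0.034 to 0.0497. Its late minus early difference was -0.18 with median centring, -0.0071 with the total of named miRNAs and -0.083 in edgeR, a test chosen after seeing the data, and its slope was -0.025 after quantile normalization. The slope of miR-21-3p ranged from -0.20 to -0.13 without 1 time, and lost its call at -0.15 with no filter, -0.14 with median centring, -0.064 after quantile normalization, -0.12 with the total of named miRNAs and -0.15 in edgeR. Without 1 time, NFIB ranged from -0.043 to 0.058, RPS6KB1 from -0.059 to 0.096, PDCD4 from -0.037 to 0.27 and CLTC from -0.16 to 0.0068, and NFIB was -0.00052 with median centring and -0.0065 after quantile normalization.

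Counts of called genes depended on the setting. With no filter on low values, 0 genes were called over the 6 times (1226 with the filter), 0 over 3 to 12 h (677), 36 over 24 to 72 h (492) and 0 for late minus early (50). Without the pairing by time, that is with no replicate block, 0 genes were called over the 6 times. Leaving out 1 time gave 34 to 1399 over the 6 times, 0 to 1084 early, 31 to 542 late, 0 to 242 for late minus early, and 1572 to 4296 genes and 21 to 82 miRNAs with time (4135 and 76 with all times). The cause was not tested. At 1 to 65 reads per library, MIR21 is limited by counting, and the smallest exact p of 6 pairs limits the ratios.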
